A study of Rattus norvegicus with 8 samples.

Results

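Interferon-stimulated genes were examined in whole kidneys of 4-week-old HSRA rats, a line derived from heterogeneous stock animals in which unilateral renal agenesis occurs. HSRA-S animals were born with a solitary kidney, HSRA-C animals had both kidneys and served as controls, and each group held 4 independent samples on 1 Rat Gene 1.1 ST array each. Both groups belong to the same model, so each carries the HSRA background, and no treatment is described for either. The labels name neither the sex nor the litter of an animal. The list of 35 genes was named by function, and each gene was read from the brightest probe set annotated to that symbol alone. Of the 35 genes, 32 had such a probe set among the 17245 genes of the array with one, and no member had more than 1. Eif2ak2, Xaf1 and Parp14 were not paired with a probe set and were not analysed here. Oas2 and Usp18 lay in the dimmest 20% of genes, below a mean of 3.63 on the log2 scale, and were left out of the test, which left 30 members among 13796 tested genes.

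Type I interferons bind a receptor whose Janus kinases phosphorylate STAT2. With IRF9 it enters a complex that binds the interferon-stimulated response element in the promoters of its targets. Interferon gamma acts through a different element, the gamma-activated site. The induced proteins detect, degrade or trap viral nucleic acids and particles. Kidney epithelium, endothelium and resident macrophages all respond to interferon, and the same genes have a tonic level without infection.

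Promoter sequences were read from RefSeq windows of assembly GRCr8, from 250 bases before to 50 after a gene's start. An entry was found for 27 of the 35 genes, the 3 without a probe set included. Entries were missing for Ifit1, Ifit2, Mx2, Oas2, Isg15, Usp18, Dhx58 and Zbp1. The core of the response element was searched on both strands as GAAA, any 2 bases, and GAAA again. It was found in 16 of the 27 windows (59.3%) and in 3.92% of all 33469 windows. The gamma-activated site, searched as TTC, any 3 bases, and GAA, was found in 8 of the 27 (29.6%) and in 8.87% of all windows. These matches describe the sequence only, and no binding was measured here. The stretches below are a selection from the members whose levels in single animals are described further on. Among them are the 6 members with a core match that were highest of the controls in HSRA-C replicate 2. These are Irf7, Ifih1, Oas1a, Ifit3, Ifi27 and Gbp2. Core matches of other members, such as Bst2, Rsad2, Ifitm3, Ifi44 and Ifi44l, are not printed. Capitals mark the response element core, except in Irf1, where they mark the gamma-activated site. Each stretch is read along the gene's own strand and ends before its start, and in those printed the 2 motifs do not overlap.
Irf7, chr1:205800063-205800112, minus strand: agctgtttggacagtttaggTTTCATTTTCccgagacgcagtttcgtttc
Ifih1, chr3:67683998-67684047, minus strand: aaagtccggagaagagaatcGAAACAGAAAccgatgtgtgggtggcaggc
Oas1a, chr12:41330411-41330460, plus strand: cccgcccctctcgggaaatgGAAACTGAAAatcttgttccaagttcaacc
Ifit3, chr1:241527262-241527311, plus strand: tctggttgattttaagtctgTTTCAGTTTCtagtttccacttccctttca
Ifi27, chr6:128355208-128355257, plus strand: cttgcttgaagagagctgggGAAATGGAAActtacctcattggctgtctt
Gbp2, chr2:234005676-234005725, plus strand: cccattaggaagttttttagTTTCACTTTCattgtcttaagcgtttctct
Gbp5, chr2:233910923-233910972, plus strand: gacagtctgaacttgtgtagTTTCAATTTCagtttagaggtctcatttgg
Cxcl10, chr14:15988816-15988852, plus strand: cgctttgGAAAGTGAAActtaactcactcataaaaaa
Irf1, chr10:38417773-38417821, plus strand: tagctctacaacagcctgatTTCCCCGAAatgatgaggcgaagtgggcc
Oas1a has another core match that overlaps the one shown, and Ifi27 has another farther from the start. Ube2l6, Herc6 and Mx1 have a promoter entry with neither motif in this window.

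The arrays resembled each other closely, with pairwise correlations of 0.987 to 0.995 on the log2 scale and median intensities of 30.8 to 32.3. The kidney markers Lrp2, Slc34a1, Aqp2 and Umod were at log2 9.70 or more in every sample. HSRA-C replicates 3 and 4 lay above the other samples for 4 of 8 medulla and collecting duct markers, Slc14a2, Aqp4, Fxyd4 and Aqp2, and among them for Aqp3, Scnn1b, Scnn1g and Hsd11b2. Slc14a2, a urea transporter of the inner medulla, was at 6.85, 7.04, 7.22 and 4.44 in HSRA-S, against 5.99, 6.44, 8.86 and 9.0 in HSRA-C. HSRA-S replicate 4 was the lowest sample for this marker. The part of the medulla in the results was not tested, and some counts of members, roles and lists are also given without HSRA-C replicates 3 and 4. A count given for all samples only may also move without these 2 replicates. The files hold no detection calls. For scale, 61 olfactory receptor genes on the array had a 95th percentile of 4.59 (mean log2 intensity over all arrays), and 12 of the 32 members lay below it. These were Ifit1, Ifit3, Mx1, Mx2, Oas1a, Oas2, Oasl, Isg15, Ube2l6, Usp18, Dhx58 and Zbp1. For them a level above background was not shown here.

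No single interferon-stimulated gene passed the adjusted test between the solitary and the control kidneys, and the list as a whole was not tested. Their log2 differences (HSRA-S minus HSRA-C) ran from -0.46 for Cxcl9 to 0.36 for Ube2l6, with a median of 0.030, against a median of 0.015 over all tested genes. By sign alone, 21 of 30 members were higher in HSRA-S and 9 lower, while 55.5% of all tested genes were higher. Without HSRA-C replicates 3 and 4 the majority turned, with 11 members higher and 19 lower by sign, and 55.2% of all genes higher. At an adjusted p under 0.05 (limma with Benjamini-Hochberg adjustment over 13796 genes), 0 members and 0% of all genes were called. At an unadjusted p under 0.05 there was 1 higher member, Ube2l6, or 3.33% of those tested, against 7.36% of all genes. The count of lower members was 0, against 4.69% of all genes. The same gene was the only member whose groups did not overlap on the higher side, against 4.12% of all genes, and 0 members were separated on the lower side, against 2.17%. The share higher by sign, 70% with all samples, was above that of the array, but it turned without HSRA-C replicates 3 and 4. With 1 gene making up 3.33% of the members, the other counts do not set the members apart from the array.

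These small counts depended on single animals. Without HSRA-C replicates 3 and 4, Cxcl10 joined Ube2l6 on the higher side (2 members) and Irf7 was on the lower side (1 member), at an unadjusted p under 0.05 and without overlap in each case, with differences of 0.29 for Cxcl10 and -0.38 for Irf7. The members' median difference was then -0.034. Of all genes, 2.68% were higher and 2.17% lower at that threshold without these samples, and 8.42% and 5.50% did not overlap on the higher and lower side. Without HSRA-C replicate 1, 4 members were higher at an unadjusted p under 0.05, namely Ube2l6, Mx2, Rsad2 and Ifi44l, while 7.78% of all genes were. Without HSRA-C replicate 2 it was 2 higher (Ube2l6 and Herc6) and 1 lower (Cxcl9), and 3 higher members (these 2 and Ifih1) and 1 lower did not overlap. The shares of all genes were then 8.58% higher and 5.30% lower at the unadjusted threshold, and 8.26% higher and 4.33% lower without overlap. Without HSRA-S replicate 4 it was 3 higher, with Bst2 and Zbp1 beside Ube2l6, and 8.29% of all genes. Without HSRA-S replicate 2 or replicate 3, Cxcl9 was the 1 lower member, and the lower share of all genes was 3.38% and 5.05%. Adjusted over all genes, 0 members passed in any of these.

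For most members the interval of the measured intensity difference was narrow. The 95% interval lay within 1.5-fold in either direction (0.58 on the log2 scale) for 26 of 30 members. That was a smaller share than the 94.3% of all tested genes. The exceptions among the members were Ifit1, Mx2, Oas1a and Cxcl9, whose intervals reached past that size on 1 side. For members in the olfactory receptor range, such as Isg15 and Ube2l6, a narrow interval bounds the signal and not the change in RNA. The distance from the difference to either bound had a median of 0.22 for the members and 0.18 for all genes. The difference was below 0.1 in size for 16 of 30 members.

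**Figure D1:**
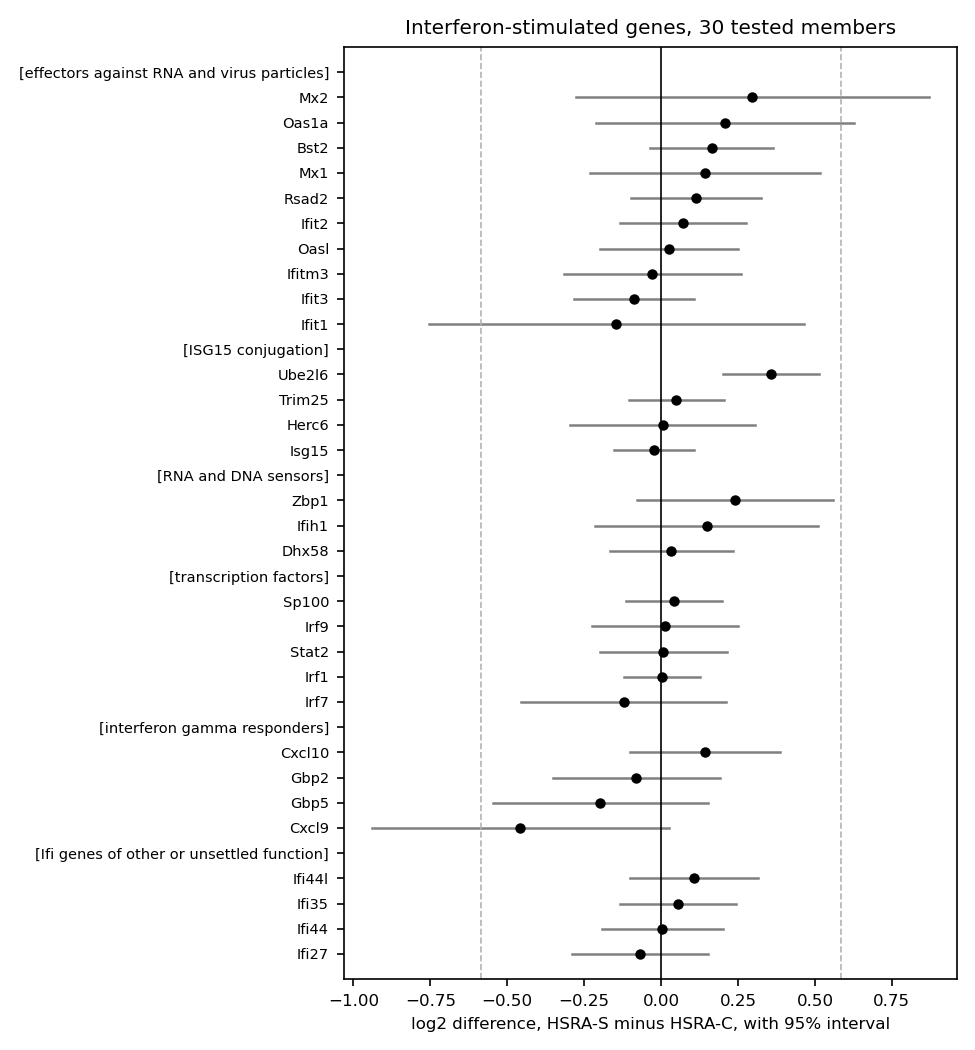
Log2 difference between HSRA-S and HSRA-C kidneys for the 30 tested members, grouped by role, with the 95% interval of the fit as a line. Dashed lines mark a 1.5-fold difference. The interval of Ube2l6, from 0.20 to 0.51, is the only one that leaves out 0.

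Among the genes of ISG15 conjugation, the only member with separated groups was Ube2l6 (probe set 10837342), the enzyme that passes the ubiquitin-like protein ISG15 from its activating enzyme to a ligase. Its log2 intensity was 4.69, 4.55, 4.58 and 4.69 in HSRA-S replicates 1 to 4, against 4.35, 4.34, 4.28 and 4.13 in HSRA-C replicates 1 to 4. All HSRA-S kidneys lay above all HSRA-C kidneys. The difference was 0.36 (SE 0.070), a 1.28-fold higher level, with an adjusted p of 0.331 in the limma fit. It was 4.02 times the pooled standard deviation within groups. The difference was 0.29 without HSRA-C replicates 3 and 4, and its groups stayed apart. Its mean over all arrays, 4.45, was in the range of the olfactory receptor probe sets.

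The other genes of this system showed no such separation. Isg15 itself was at 4.49, 4.52, 4.49 and 4.60 in HSRA-S, against 4.49, 4.59, 4.60 and 4.51 in HSRA-C. Those values spanned 0.11 in each group and overlapped, with a difference of -0.022 and a 95% interval from -0.15 to 0.11. Trim25, a ubiquitin ligase that activates the RNA sensor RIG-I, was at 7.79, 7.77, 7.75 and 7.95 in HSRA-S, against 7.86, 7.80, 7.75 and 7.66 in HSRA-C, a difference of 0.049. Herc6, which acts as an ISG15 ligase in the mouse, was at 5.34, 5.35, 5.36 and 5.42 in HSRA-S, against 5.22, 5.84, 5.14 and 5.25 in HSRA-C. HSRA-C replicate 2 lay above all other kidneys for Herc6, and the means of the groups differed by 0.0047. Usp18, the protease that removes ISG15 and dampens the type I receptor, was at 3.69, 3.66, 3.37 and 3.33 in HSRA-S, against 3.36, 3.96, 3.25 and 3.0 in HSRA-C. It was also highest in HSRA-C replicate 2, and was too dim to be tested.

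Among the effectors against RNA and virus particles, the sign was positive for 7 of the 10 tested and negative for 3, with a median difference of 0.092, and 0 passed at an unadjusted p under 0.05. Without HSRA-C replicates 3 and 4 the signs turned to 4 positive and 6 negative, with a median of -0.049, since Ifit2, Mx1, Mx2 and Oas1a became negative and Ifitm3 positive. Mx2, a dynamin-like GTPase, had the widest difference of them at 0.30 (SE 0.26). It was at 4.31, 4.70, 4.45 and 4.93 in HSRA-S, against 5.10, 4.38, 3.76 and 3.97 in HSRA-C. HSRA-C replicate 1 was the highest of the 8 kidneys and HSRA-C replicates 3 and 4 were the lowest, so the groups overlapped. The difference of Mx2 was 0.56 without HSRA-C replicate 1, 0.12 without HSRA-C replicate 3, and 0.19 when HSRA-S replicate 4 or HSRA-C replicate 4 was left out. With HSRA-C replicates 3 and 4 both left out it was -0.14. Mx1, its paralogue, was at 4.86, 4.23, 4.49 and 4.14 in HSRA-S, against 4.33, 4.61, 3.99 and 4.22 in HSRA-C, with a difference of 0.14 (SE 0.17). The order of the animals differed between these paralogues: HSRA-S replicate 4 was the highest of its group for Mx2 and the lowest for Mx1.

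The oligoadenylate synthetases make the messenger that activates RNase L. Oas1a was at 4.46, 4.64, 4.49 and 3.99 in HSRA-S, against 4.28, 4.66, 3.77 and 4.05 in HSRA-C, with a difference of 0.21 (SE 0.19). Its groups overlapped, and HSRA-C replicate 2 and HSRA-S replicate 2 were the 2 highest kidneys. Oasl, a related protein, differed by 0.026. Oas2, untested because it was dim, was at 3.75, 3.47, 3.45 and 3.51 in HSRA-S, against 3.83, 3.58, 3.37 and 3.40 in HSRA-C.

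The IFIT proteins bind the ends of foreign RNA. Ifit1 was at 4.82, 4.32, 4.25 and 3.41 in HSRA-S, against 3.86, 4.71, 4.29 and 4.52 in HSRA-C. Its pooled standard deviation within groups, 0.49, was wider than that of 99.3% of tested genes, and HSRA-S replicate 4 was the lowest kidney. A further probe set is annotated to both Ifit1 and Ifit1bl and was not used. Ifit2 was at 5.27, 5.46, 5.36 and 5.53 in HSRA-S, against 5.49, 5.43, 5.29 and 5.12 in HSRA-C, a difference of 0.071. Ifit3 was at 3.97, 3.91, 3.76 and 3.65 in HSRA-S, against 3.92, 4.08, 3.82 and 3.83 in HSRA-C, a difference of -0.089. Neither separated the groups.

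Rsad2, or viperin, which makes a chain-terminating nucleotide, was at 6.18, 6.0, 5.96 and 6.03 in HSRA-S, against 6.16, 5.78, 5.99 and 5.79 in HSRA-C, a difference of 0.11. Bst2, or tetherin, which holds budding particles at the cell surface, was at 4.65, 4.70, 4.96 and 4.59 in HSRA-S, against 4.60, 4.48, 4.68 and 4.47 in HSRA-C. Its difference of 0.16 (SE 0.090) was 1.22 times the pooled standard deviation within groups. Even so, HSRA-C replicate 3 lay above 2 of the HSRA-S kidneys for Bst2, and the limma adjusted p was 0.485. Ifitm3, a membrane protein that blocks viral fusion, was at 8.57, 8.95, 8.91 and 8.68 in HSRA-S, against 8.79, 8.48, 9.06 and 8.90 in HSRA-C. The groups covered each other, with a difference of -0.028.

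The 3 sensors were higher in HSRA-S by sign with all samples, and 0 passed at an unadjusted p under 0.05. Without HSRA-C replicates 3 and 4, 1 of 3 was higher by sign, with Ifih1 at a difference of -0.042 and Dhx58 at -0.082. Ifih1, or MDA5, which detects long double-stranded RNA, was at 5.64, 5.68, 6.19 and 5.62 in HSRA-S, against 5.62, 6.04, 5.36 and 5.54 in HSRA-C. In each group 1 animal stood above the other 3, HSRA-S replicate 3 and HSRA-C replicate 2, and the difference of the means was 0.15 (SE 0.16). Zbp1, a sensor of Z-form nucleic acid that can start necroptosis, was at 4.34, 3.73, 4.06 and 3.63 in HSRA-S, against 3.67, 3.72, 3.84 and 3.57 in HSRA-C. The difference of 0.24 (SE 0.14) came with a standard deviation of 0.33 in HSRA-S, against 0.11 in HSRA-C, and HSRA-S replicate 4 was below 3 control kidneys. Dhx58, or LGP2, which tunes the RNA sensors, differed by 0.033, and by -0.026 without HSRA-S replicate 1 and -0.031 without HSRA-C replicate 3.

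Of the 5 tested transcription factors, 4 were higher by sign and 1 lower, with differences of at most 0.041 in size apart from Irf7. With HSRA-C replicates 3 and 4 left out it was 2 higher and 3 lower. Stat2 and Irf9, which belong to the type I complex, differed by 0.0067 and 0.013. Stat2 was at 6.58, 6.67, 6.72 and 6.34 in HSRA-S, against 6.55, 6.73, 6.51 and 6.49 in HSRA-C. Irf9 was at 5.79, 6.01, 5.88 and 5.60 in HSRA-S, against 5.59, 6.0, 5.79 and 5.84 in HSRA-C. For both, HSRA-S replicate 4 was the lowest of its group and HSRA-C replicate 2 the highest of its group.

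Irf1, the factor that carries interferon gamma responses onward, had the narrowest spread of the members. It was at 6.28, 6.35, 6.29 and 6.26 in HSRA-S, against 6.33, 6.22, 6.32 and 6.28 in HSRA-C, with a difference of 0.0029 and a 95% interval from -0.12 to 0.13. Irf7, the factor that amplifies type I interferon, was at 4.71, 4.54, 4.70 and 4.59 in HSRA-S, against 4.81, 5.22, 4.41 and 4.58 in HSRA-C. The 4 HSRA-S kidneys spanned 0.17 and the 4 controls 0.81, with HSRA-C replicate 2 the highest of all 8. The difference of Irf7 was -0.12 (SE 0.15). It was 0.033 without HSRA-C replicate 2. With HSRA-C replicates 3 and 4 left out it was -0.38. Sp100, a nuclear body protein grouped here with the factors, was at 7.39, 7.37, 7.50 and 7.34 in HSRA-S, against 7.45, 7.38, 7.39 and 7.21 in HSRA-C, a difference of 0.041.

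Of the 4 members best known as interferon gamma responders, 3 were lower in HSRA-S by sign, with a median difference of -0.14, and 0 passed at an unadjusted p under 0.05. Without HSRA-S replicate 4 it was 2 of 4, with a median of -0.0054, Gbp2 at 0.039 and Gbp5 at -0.050. The gamma-responsive genes outside the list that are given here are a selection and not a full count, and they went in both directions. Cxcl11 differed by 0.28, Psmb9 by 0.31, Ifi47 by 0.28 and Igtp by 0.031, against -0.075 for Gbp4 and -0.13 for Socs1. The difference of Ifi47 was 0.0048 without HSRA-C replicates 3 and 4. Cxcl9, a chemokine that draws activated T cells through CXCR3, was at 5.55, 5.86, 5.91 and 4.98 in HSRA-S, against 6.27, 5.54, 6.22 and 6.11 in HSRA-C. Only HSRA-C replicate 2 of the controls fell among the HSRA-S values, and HSRA-S replicate 4 was the lowest kidney. The difference was -0.46 (SE 0.22), 1.37-fold lower in HSRA-S, with a limma adjusted p of 0.430. It was -0.26 without HSRA-S replicate 4 and -0.33 without HSRA-C replicates 3 and 4.

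Cxcl10, a ligand of the same receptor, did not follow Cxcl9. It was at 6.94, 6.96, 7.23 and 6.86 in HSRA-S, against 6.76, 6.64, 7.08 and 6.92 in HSRA-C, a difference of 0.14 (SE 0.11). Without HSRA-C replicates 3 and 4 that difference was 0.29, and it did not pass over all genes (adjusted p = 0.977 in limma). The guanylate-binding proteins are GTPases that attack vacuoles of microbes and aid inflammasomes. Gbp5 was at 5.41, 5.54, 5.60 and 4.93 in HSRA-S, against 5.29, 5.51, 5.83 and 5.65 in HSRA-C, a difference of -0.20 (SE 0.16). Gbp2 was at 5.60, 5.79, 5.82 and 5.26 in HSRA-S, against 5.54, 5.84, 5.73 and 5.68 in HSRA-C, a difference of -0.081. HSRA-S replicate 4 was the lowest of the 8 kidneys for both, and the other HSRA-S kidneys lay among the controls.

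The 4 remaining members carry the Ifi name. Ifi27 was at 5.85, 5.73, 5.70 and 5.71 in HSRA-S, against 5.74, 6.12, 5.78 and 5.63 in HSRA-C, and HSRA-C replicate 2 was again the highest. Ifi35, which pairs with the protein NMI, was at 4.92, 5.11, 5.08 and 4.94 in HSRA-S, against 5.05, 5.10, 4.79 and 4.89 in HSRA-C, a difference of 0.055. Ifi44 was at 6.31, 6.04, 6.01 and 6.02 in HSRA-S, against 5.92, 6.15, 6.16 and 6.14 in HSRA-C. Apart from HSRA-S replicate 1 on the high side and HSRA-C replicate 1 on the low side, the kidneys lay within a narrow band for Ifi44. Ifi44l, its paralogue, was at 5.61, 5.60, 5.38 and 5.53 in HSRA-S, against 5.67, 5.28, 5.32 and 5.43 in HSRA-C, a difference of 0.11. None of these 4 genes separated the groups.

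**Figure D2:**
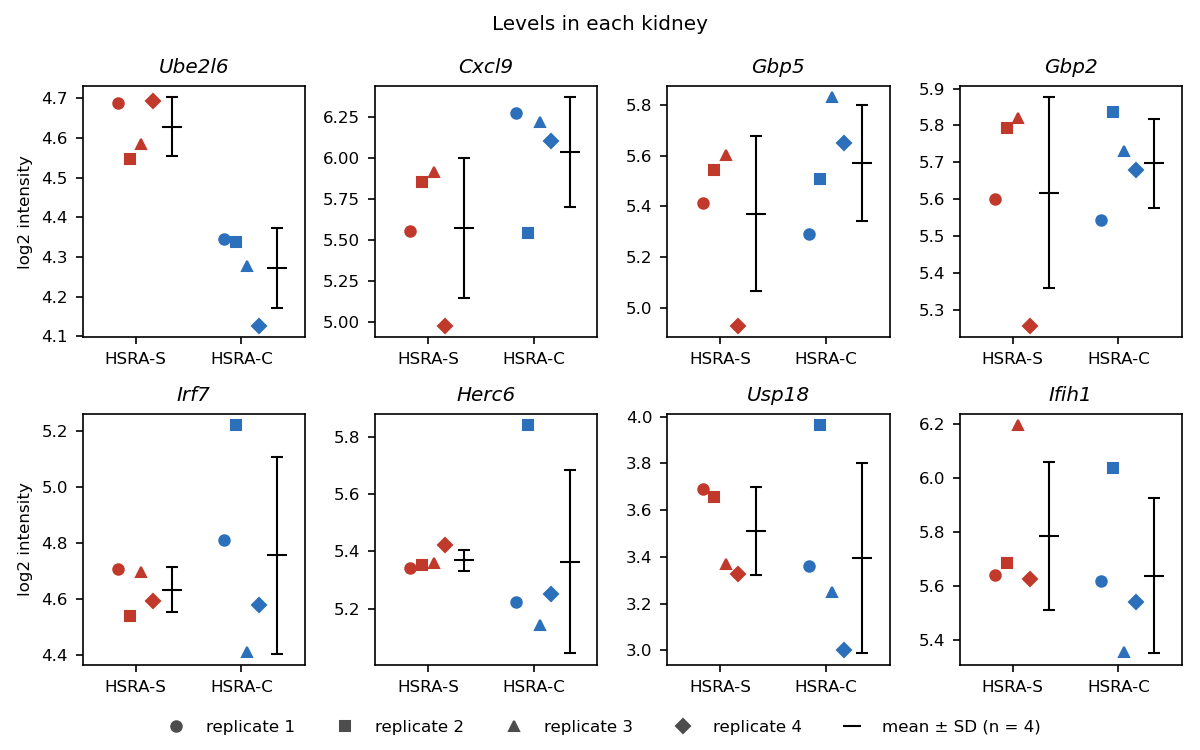
Log2 intensity of 8 members in each kidney, HSRA-S on the left and HSRA-C on the right of each panel, with a symbol for each replicate number and the mean ± SD beside it. The groups are apart for Ube2l6, HSRA-S replicate 4 is lowest for Cxcl9, Gbp5 and Gbp2, and HSRA-C replicate 2 is highest for Irf7, Herc6 and Usp18.

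The members varied more between animals of the same group than the average gene did. The pooled standard deviation within groups had a median of 0.16 over the 30 tested members and 0.12 over all tested genes. It ran from 0.044 for Irf1 to 0.49 for Ifit1. For 10 of the 30 members it was within the widest 10% of the array, namely Ifit1, Mx1, Mx2, Oas1a, Herc6, Ifih1, Zbp1, Irf7, Cxcl9 and Gbp5. Of these, Ifit1, Mx1, Mx2, Oas1a and Zbp1 were in the dim range given above. The difference between the groups exceeded the pooled standard deviation for 3 of 30 members, Ube2l6, Cxcl9 and Bst2, and for 33.3% of all tested genes. No test was made of these spreads.

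The animal that was highest was not the same throughout the list. HSRA-C replicate 2 was the highest of the 4 controls for 12 of 30 tested members (40.0%), and for 28.7% of all tested genes. They were Ifit1, Ifit3, Mx1, Oas1a, Herc6, Ifih1, Irf7, Irf9, Stat2, Gbp2, Ifi27 and Ifi35. HSRA-C replicate 1 was highest for 10 members, HSRA-C replicate 3 for 8 and HSRA-C replicate 4 for 0, where that sample was highest for 23.3% of all genes. On the other side, HSRA-S replicate 4 was the lowest of its group for 15 of 30 members, or 50%, where it was lowest for 35.1% of all genes. The mean of the 30 members was 5.50, 5.49, 5.52 and 5.33 in HSRA-S replicates 1 to 4, against 5.45, 5.51, 5.38 and 5.36 in HSRA-C replicates 1 to 4. These means overlapped, with HSRA-C replicate 2 among the 3 upper HSRA-S kidneys and HSRA-S replicate 4 below every control.

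**Figure D3:**
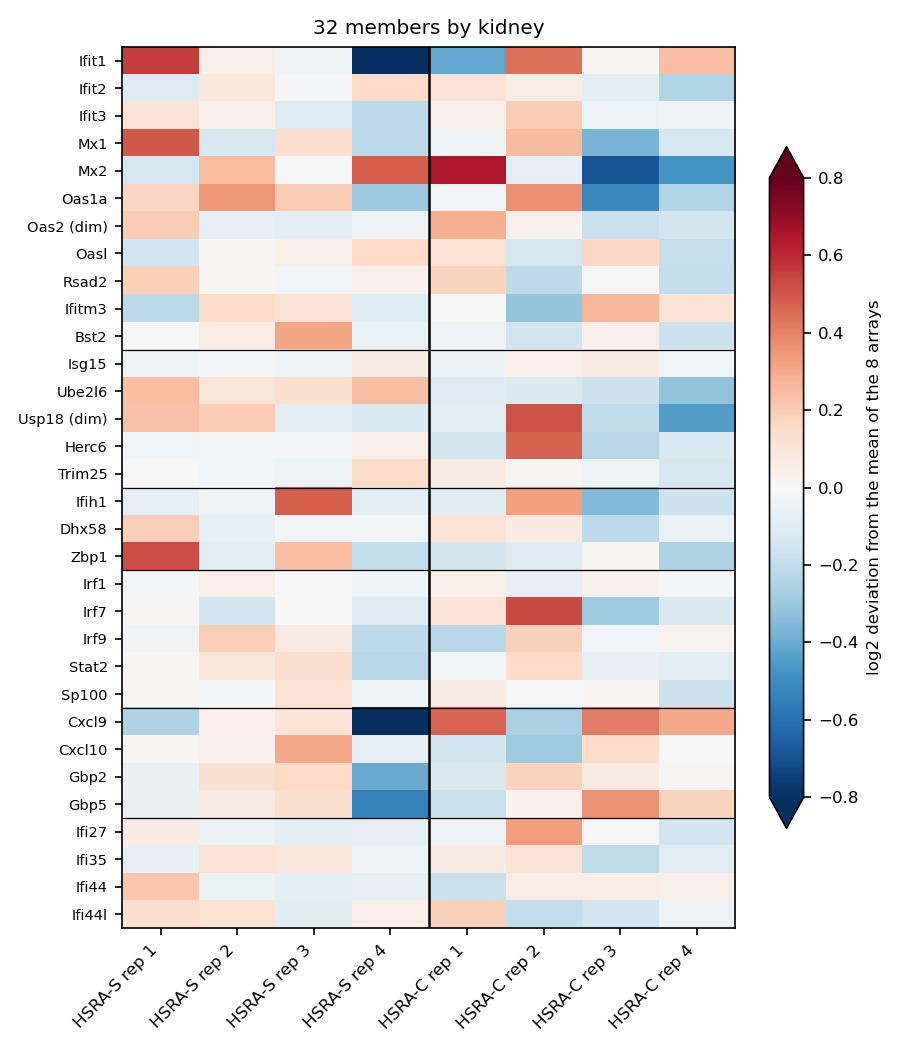
Deviation of each member from its own mean over the 8 arrays on the log2 scale, in HSRA-S kidneys (left of the black line) and HSRA-C kidneys (right). Thin lines divide the members by role, in the order effectors, ISG15 conjugation, sensors, transcription factors, interferon gamma responders and Ifi genes, and those marked dim were not tested. Ube2l6 alone is red in every HSRA-S kidney and blue in every HSRA-C kidney.

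The rest of the pathway was read from 4 further lists, and 0 of their genes passed at an adjusted p under 0.05 in limma. The shares of all genes given above (7.36% higher and 4.69% lower at an unadjusted p under 0.05, 55.5% higher by sign) apply to each count below. Of the interferon ligands, 6 of 13 had a probe set and 4 were tested. All 4 were higher by sign, or 3 without HSRA-C replicates 3 and 4, with 0 past an unadjusted p under 0.05. Ifna4, Ifna5 and Ifnb1 had group means below the olfactory receptor 95th percentile of 4.59. For these ligands a level above background was not shown. Ifnb1, the first type I interferon made by most cells, was at 4.02, 3.79, 3.76 and 3.79 in HSRA-S, against 3.62, 3.85, 3.68 and 3.73 in HSRA-C. Of the receptors and signalling genes 12 of 15 were tested, with 7 higher and 5 lower by sign. Ifnlr1, the specific chain of the lambda interferon receptor of epithelia, was the 1 gene at an unadjusted p under 0.05. It was at 5.57, 5.38, 5.21 and 5.16 in HSRA-S, against 5.48, 5.58, 5.52 and 5.60 in HSRA-C, a difference of -0.22 (SE 0.090, limma adjusted p = 0.390). Ifnar1, a chain of the type I receptor, differed by -0.14, Ptpn6, a phosphatase that damps cytokine signals, by 0.14, and Jak2, a kinase of the gamma receptor, by 0.12. With HSRA-C replicates 3 and 4 left out, 0 of the 12 passed the unadjusted threshold, and Ifnlr1 was at -0.20.

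Genes of nucleic acid sensing and interferon induction had 11 of 22 tested, 8 higher and 3 lower by sign, with a median difference of 0.14. Irf5, a factor of macrophages and dendritic cells downstream of Toll-like receptors, was the 1 gene at an unadjusted p under 0.05. It was at 5.39, 4.94, 5.19 and 4.86 in HSRA-S, against 4.88, 4.80, 4.54 and 4.45 in HSRA-C, a difference of 0.43 (SE 0.13, limma adjusted p = 0.338). Ikbke, a kinase of IRF3 and IRF7, was at 5.28, 5.30, 5.29 and 5.38 in HSRA-S, against 4.96, 5.25, 5.13 and 5.26 in HSRA-C. Its groups did not overlap, with a difference of 0.16 (SE 0.076, limma adjusted p = 0.425). The adaptors Ticam1 and Traf3 differed by 0.18 and 0.15. None of the 11 (0) passed the unadjusted threshold without HSRA-C replicates 3 and 4, where Irf5 was at 0.25 and Ikbke at 0.21.

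Of 52 further interferon-stimulated genes 41 were tested, 24 higher and 17 lower by sign, with a median difference of 0.031. At an unadjusted p under 0.05 there were 2, both higher. Cxcl11, the third CXCR3 ligand, was at 6.10, 6.03, 5.78 and 6.20 in HSRA-S, against 5.82, 5.72, 5.76 and 5.71 in HSRA-C, a difference of 0.28 (SE 0.088, limma adjusted p = 0.338). Psmb8, an immunoproteasome subunit, differed by 0.19 (SE 0.076). The next by p were Samd9 with a difference of 0.24 and Irf8, a myeloid factor, with 0.21. Psmb8 and Samd9 had group means below the olfactory receptor 95th percentile of 4.59, so a level above background was not shown for them. Without HSRA-C replicates 3 and 4, 0 genes were higher and 2 lower at the unadjusted threshold (Helz2 and Slfn5), with Cxcl11 at 0.26. Without HSRA-S replicate 4, 5 were higher, and without HSRA-C replicate 2, 4 were higher and 1 lower.

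**Figure D4:**
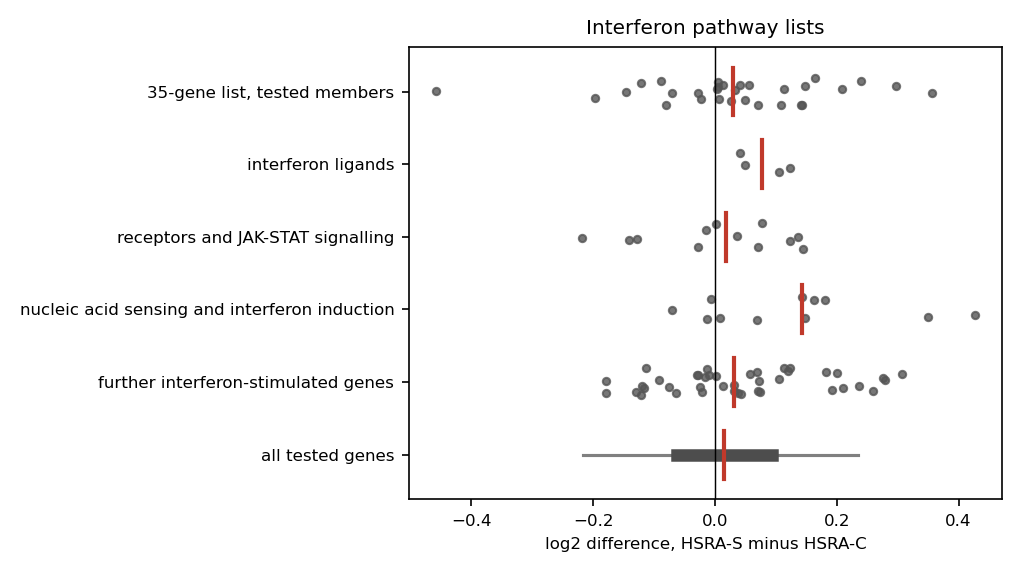
Log2 differences between HSRA-S and HSRA-C of the tested members and of the tested genes in 4 other interferon lists, 1 point per gene, with the median as a red line. The bottom row gives all tested genes, with the middle 50% as the thick bar and the 5th to 95th percentile (-0.22 to 0.23) as the thin line.

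Markers of immune cells were read beside these values, since such cells respond to interferon. In whole tissue, a change in the number of cells of a type and a change in RNA per cell cannot be told apart. Of 10 macrophage markers, 9 were higher in HSRA-S by sign and 4 passed an unadjusted p under 0.05, compared with 7.36% of all genes. The 4 became 1 without HSRA-C replicates 3 and 4, 7 without HSRA-C replicate 2 and 8 without HSRA-S replicate 4. Their summed intensity ran from 439 to 617 in HSRA-S, against 382 to 511 in HSRA-C, or 467 to 511 without HSRA-C replicates 3 and 4. Of 13 T and NK cell markers 5 were too dim and 8 were tested. All 8 were higher by sign and 3 passed an unadjusted p under 0.05, or 2 without HSRA-C replicates 3 and 4. The 3 were Cd4, Nkg7 and Ncr1. The T and NK sums were 271 to 349 in HSRA-S, against 251 to 274 in HSRA-C. Cd4 was the brightest of these markers, at 6.67, 6.69, 6.61 and 6.12 in HSRA-S, against 5.83, 6.32, 6.07 and 5.86 in HSRA-C. Which cells carried the Cd4 signal was not tested. The T cell markers Cd3d, Cd3g and Cd2 were among the 5 too dim to test. Cd3e was at 3.77, 3.53, 3.55 and 3.91 in HSRA-S, against 3.57, 3.57, 3.81 and 3.64 in HSRA-C, close to the limit for testing. Nkg7 was at 5.73, 4.94, 5.61 and 4.53 in HSRA-S, against 4.68, 4.55, 4.68 and 4.45 in HSRA-C, and overlapped. The 5 endothelial markers measured were all lower by sign, with sums of 1832 to 2047 in HSRA-S, against 1912 to 2320 in HSRA-C. Of them 1, Cdh5, was lower at an unadjusted p under 0.05, compared with 4.69% of all genes. Cdh5 was at 7.50, 7.48, 7.54 and 7.57 in HSRA-S, against 7.65, 7.71, 7.84 and 7.75 in HSRA-C, and its groups did not overlap. Of the 5, 3 were lower by sign without HSRA-C replicates 3 and 4, and 0 passed that threshold. Neutrophil sums were 81.5 to 90.4 in HSRA-S, against 80.6 to 85.5 in HSRA-C, with S100a8 and Cxcr2 below the limit for testing. Of the 4 tested neutrophil markers, S100a9, Mpo and Elane had group means below the olfactory receptor 95th percentile of 4.59. Csf3r lay close to it, at 4.62 in HSRA-S and 4.55 in HSRA-C. A neutrophil level above background was not shown. B cell and plasmacytoid dendritic cell sums were 524 to 574 in HSRA-S, against 547 to 607 in HSRA-C. These sums follow mainly 1 gene, Tcf4, by far the brightest of the markers, with means of 8.77 in HSRA-S and 8.90 in HSRA-C. Of the 4 tested, 2 were higher by sign, Cd79b and Irf8, and 2 lower, Siglech and Tcf4. The sums are therefore no reading of these cells. The 8 medulla and collecting duct markers were all lower by sign, with sums of 2437 to 3155 in HSRA-S, against 2940 to 4346 in HSRA-C. Of the 8, 1 was lower at an unadjusted p under 0.05, Aqp2. Without HSRA-C replicates 3 and 4, 5 of the 8 were lower by sign and 0 passed that threshold. The HSRA-C sums were then 2940 to 3003. Of 11 proximal tubule markers 8 were higher by sign, 2 of them (Slc2a2 with a difference of 0.75, and Slc5a12) at an unadjusted p under 0.05, with 1 lower (Aqp1). The 8 became 6 without HSRA-C replicates 3 and 4 and 5 without HSRA-S replicate 4. The thick ascending limb markers (5 of 5) and the podocyte markers (4 of 4) were lower by sign, with 0 past that threshold. Without HSRA-C replicates 3 and 4, 4 of 5 thick ascending limb markers were lower. Of the proliferation markers 5 of 5 were higher at an unadjusted p under 0.05, with sums of 416 to 676 in HSRA-S, against 299 to 577 in HSRA-C. Of these 5, 0 passed without HSRA-C replicates 3 and 4, with 5 higher by sign. HSRA-S replicate 4, which was lowest for Cxcl9, Gbp2 and Gbp5, also had the lowest Csf1r of its group, 6.47, against 6.95 or more in the other HSRA-S kidneys. In HSRA-C, replicates 3 and 4 had the lowest Csf1r of all, 6.43 and 6.27, beside the 2 highest Gbp5 values. HSRA-C replicate 2 had the highest Csf1r of the controls, 6.94, beside the highest Gbp2 and the lowest Cxcl9 of the controls. Not every macrophage marker ordered the controls as Csf1r did. C1qa, C1qb and C1qc were also lowest in HSRA-C replicates 3 and 4. Adgre1, however, was lowest in HSRA-C replicate 2, at 4.91. Adgre1 and Cd68 were the highest of the controls in HSRA-C replicate 3, at 5.29 and 5.48. The part of these cells in the values of the interferon-stimulated genes was not tested.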

How the data were processed

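Whole kidney RNA of 4 HSRA-S and 4 HSRA-C rats was measured on Affymetrix arrays, 1 per sample. The authors deposited RMA summaries, per the submitters' processing notes, as intensity values on a linear scale (2.12 to 9259). The RMA software is not given in the sources used here, and no genome build is named. Log2 of each intensity was taken. Of 29214 probe sets, 18644 had 1 symbol in the platform annotation, 962 several and 9608 none, and only the first kind was used. All 32 members' gene IDs matched RefSeq. The number of arrays limits the precision.

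The brightest probe set stood for each gene, the dimmest 20% of genes were left out, and groups were compared with limma 3.58.1 in R 4.3.3 (lmFit and eBayes, group as the only term), with Benjamini-Hochberg adjustment over 13796 genes. The values of the 2 dim members come from the same table. The fit was tested on simulated data made from these genes. Lists are described by counts and medians, with no test of a list. The members, lists and tests were chosen with earlier results of these data known. By the rule for naming, all members are named, with up to 4 genes of smallest p from each other pathway list. Psmb9, Ifi47, Igtp, Gbp4 and Socs1 are named in addition as gamma-responsive genes. The olfactory receptor range, the gamma-activated site, the counts of highest and lowest animals, and which further members are given sample by sample were chosen after values were seen. Alternatives were other filters, probe set means, an intensity trend, renewed centring or quantile normalization, the replicate number as a block, and leaving out samples.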

Additional observations from a re-analysis of the deposited data

Results flagged for a closer look

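Among 64 sets of 4 values (32 members in each group), 4 held a sample whose gap to the nearest other sample exceeded Dixon's 95% critical share of the range. Chance gives about 1 in 20 such sets, so a count of this size is near what chance gives. Ifih1 was at 6.19 in HSRA-S replicate 3, while the other HSRA-S kidneys lay between 5.62 and 5.68. Ifi44 was at 6.31 in HSRA-S replicate 1, above 6.04 in the next HSRA-S kidney. Ifi44 was also at 5.92 in HSRA-C replicate 1, below 6.14 in the next HSRA-C kidney. Herc6 was at 5.84 in HSRA-C replicate 2, above 5.25 in the next HSRA-C kidney.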

How the results depend on the processing

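The count of members past the adjusted threshold was 0 under all 16 alternatives, with the smallest adjusted p between 0.171 and 0.977. Ube2l6 kept its direction and an unadjusted p under 0.05 in the 15 that tested it (0.29 to 0.38). With the dimmest 50% of genes left out, 13 members were tested, Ube2l6 was not among them, and the counts of higher members were 0 at an unadjusted p under 0.05 and 0 without overlap. Leaving out 1 sample moved the count at an unadjusted p under 0.05 between 1 and 4 for higher members and between 0 and 1 for lower members. The count without overlap then lay between 1 and 3 for higher and between 0 and 1 for lower members, and the median difference between 0.0081 and 0.071. Leaving out HSRA-C replicates 3 and 4 together, an alternative chosen after seeing the data, gave 2 higher and 1 lower member by both counts, a median of -0.034, and 12 of 30 members with the opposite sign. Under every other alternative at most 6 had it. The replicate block gave a difference of 0.36 and an adjusted p of 0.265 for Ube2l6 and changed no call. Same-numbered samples deviated from their group means with correlations of -0.068, 0.070, 0.13 and -0.11. The labels do not say what the number stands for. These few correlations between single samples cannot settle whether same-numbered samples share more than a number. Signal near background limits what can be said of the 12 members in the olfactory receptor range.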
